A study of Mus musculus with 3 samples.

Results

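The cytosolic ribosomal protein genes were taken as the protein-coding genes of the mouse annotation (GENCODE on the assembly GRCm38, also called mm10) whose symbol is Rpl or Rps followed by a digit, or Rplp0, Rplp1, Rplp2 or Rpsa, with the Rps6k kinases left out. The rule gave 92 of 21938 protein-coding genes and uses symbols only, no measured value. Of the 92, 77 are canonical ribosomal protein genes, 46 of the large subunit and 31 of the small subunit. The other 15 are 8 paralogues (symbols such as Rpl3l and Rps27l), 6 retrocopy symbols that the annotation calls protein-coding, and Rps19bp1, which encodes a protein that binds RPS19. DNase-seq, which maps DNA open to cleavage by DNase I, had been made from primary natural killer cells of virgin male B6CASTF1/J mice (an F1 hybrid of an inbred laboratory strain and the wild-derived CAST strain) at 2 months of age. The 3 replicates form 1 group and carry 1 donor label with different biosample labels, so their spread may be technical. The labels name no sort, gate, treatment or transgene, and without a second group nothing here is a contrast between conditions. The exact sign-flip test over 3 replicates cannot go below a two-sided p of 0.25, so values are given as descriptions, by library and as mean ± SD over the 3.

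Each ribosome holds 1 copy of nearly every ribosomal protein, and their genes are transcribed at high rates in growing cells, with their output kept in balance. In mammals these genes are known for a short stretch of pyrimidines (C and T) that begins at the first transcribed base, usually a C; it lies in the messenger RNA's leader, where it makes translation depend on the kinase mTOR. Their promoters mostly lack a TATA box and are known for sites of ETS factors such as GABP, of SP1 (the GC box) and of YY1.

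The sequences that the results turn on are shown first, each read 5′ to 3′ on the gene's strand from GRCm38. They run from 80 bases before to 19 after the annotated start of the gene's best-supported protein-coding transcript. That base is counted as 0 and need not be the first base transcribed. Capitals mark bases that lay inside a deposited footprint, a short stretch protected from cleavage within open DNA, in all 3 libraries. The mice also carry CAST chromosomes, whose bases were not examined. Rps28 (chr17:33824543-33824642, minus strand) and Rpl23 (chr11:97782418-97782517, minus strand) are the highest-ranked of 7 members that tied for the most footprints found in all 3 libraries inside this window, 3 each. Rpl7a (chr2:26910684-26910783, plus strand) and Rplp0 (chr5:115559387-115559486, plus strand) hold a GC box and a CCAAT box, in turn, in a footprint in all 3 libraries. Rpl3 (chr15:80083387-80083486, minus strand) is an open canonical gene, and Rpl3l (chr17:24727740-24727839, plus strand) its closed, striated-muscle paralogue.
Rps28: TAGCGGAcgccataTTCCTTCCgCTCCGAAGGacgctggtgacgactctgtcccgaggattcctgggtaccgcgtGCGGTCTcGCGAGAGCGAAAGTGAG
Rpl23: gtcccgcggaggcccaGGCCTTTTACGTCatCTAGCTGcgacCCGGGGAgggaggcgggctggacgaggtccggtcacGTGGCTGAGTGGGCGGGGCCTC
Rpl7a: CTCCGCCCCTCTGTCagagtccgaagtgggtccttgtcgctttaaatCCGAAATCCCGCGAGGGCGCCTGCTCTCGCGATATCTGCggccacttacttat
Rplp0: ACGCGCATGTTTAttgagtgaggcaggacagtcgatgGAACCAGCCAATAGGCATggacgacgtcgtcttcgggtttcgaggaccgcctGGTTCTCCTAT
Rpl3: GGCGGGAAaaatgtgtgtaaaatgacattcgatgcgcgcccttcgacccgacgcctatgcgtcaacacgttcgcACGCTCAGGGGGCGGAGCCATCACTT
Rpl3l: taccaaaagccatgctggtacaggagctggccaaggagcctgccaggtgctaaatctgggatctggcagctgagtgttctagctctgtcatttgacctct

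In Rps28, 48 of the 100 bases shown lay in a footprint in all 3 libraries, in Rpl23 49, in Rpl7a 54 and in Rplp0 42. Rpl3 had 34 such bases, while Rpl3l had 0 in any library. In Rpl7a the longest such stretch ran from base -33 to base 5 and so covered the annotated start. In Rplp0 the stretch from -43 to -26 enclosed the CCAAT box at -36 to -32.

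The libraries held 40484, 84564 and 81854 peaks and 101990, 239483 and 222990 footprints in replicates 1, 2 and 3. Read depth is unknown from these files, and replicate 1 had the fewest peaks and footprints. The unit of the deposited peak signal is not stated, so a gene's signal is given as the percentile of its strongest promoter peak among all peaks of that library, where 100 is the strongest. Promoters of 10 natural killer cell marker genes were open in 8, 10 and 10 cases, of 8 B cell markers in 6, 8 and 7, of 8 T cell markers in 2, 6 and 4, of 8 myeloid markers in 2, 2 and 2, and of 6 erythroid markers in 2, 3 and 2. On the log2 signal scale, centred on all promoters open in all 3 libraries, the median difference of replicate 2 minus replicate 3 was -0.98 over 8 natural killer cell markers and 1.09 over 6 B cell markers, so these 2 libraries differed in the markers of both cell types. Over the same marker genes the median percentile was 78.5, 80.6 and 90.2 for natural killer cell markers and 33.7, 90.5 and 79.5 for B cell markers in replicates 1, 2 and 3. In replicate 2 the B cell marker promoters thus ranked above the natural killer cell ones, against the label. The part of cell makeup in the members' values was not tested. Without replicate 2 the median percentile of the canonical genes was 94.3. A mean over 3 libraries cannot move by more than their SD when 1 is left out. Staying within that SD therefore says nothing about the part of replicate 2. Over the 77 canonical genes the median difference of replicate 2 minus replicate 3 was 0.05, with quartiles of -0.03 and 0.10, and 51 of 77 lay above 0. Over the 11181 other open promoters it was 0.00.

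A promoter was called open where a peak overlapped the 500 bp on either side of any start of the gene's protein-coding transcripts. In each of the 3 libraries 82 of the 92 genes were open, where 51.8%, 58.9% and 58.1% of all protein-coding genes were. The same 82 were open in all 3 libraries, against 51.3% of all genes. The 82 also had a footprint in that window in all 3 libraries, where 48.8% of all genes did. All 77 canonical genes were among them, of both subunits, and they lie on 19 chromosomes. No canonical gene lacked a promoter peak in any library. For comparison, all 78 genes with mitochondrial ribosomal protein symbols (Mrpl and Mrps) and 38 of 40 proteasome subunit genes (Psm) were open in all 3.

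The members outside the canonical set split by copy. Of the 15, 5 were open in every library and 10 had neither a peak nor a footprint in any. Rpl22l1, the paralogue of Rpl22, stood at percentiles 98.4, 98.8 and 98.9, above most canonical genes. Rpl36al, which shares its peak with Mgat2, stood at 96.2, 96.9 and 96.3. Rps27l, a paralogue known as a p53 target, stood at 89.4, 95.8 and 95.9, and Rpl7l1 at 88.1, 94.6 and 93.7. Rps19bp1 was the lowest of the open 5, at 81.8, 92.3 and 90.5. Each of the 5 had footprints in every library, from a total of 18 in Rps19bp1 (5, 7 and 6) to 32 in Rpl7l1 (8, 14 and 10).

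The closed 10 were the paralogues Rpl10l, Rpl39l, Rpl3l and Rps27rt and all 6 retrocopy symbols, Rpl10-ps3, Rpl36-ps4, Rpl36a-ps1, Rpl9-ps1, Rpl9-ps6 and Rps12-ps3. Rpl10l and Rpl39l are known for their use in the testis and Rpl3l for its use in heart and skeletal muscle. All 7 members with a single exon, the form a retrotransposed copy takes, were closed. Rpl36-ps4 and Rpl39l, with 3 exons each, and Rpl3l, with 10, were closed as well. Copies of a canonical gene can be hard to map, and up to 49.4% of the 32-base words within 100 bp of a closed member's start occur elsewhere in the genome (Rpl10-ps3). Rpl39l, Rpl3l, Rpl36-ps4 and Rpl9-ps1 had 0% such words. Of the canonical genes, 4 had over 25% such words: Rplp1 with 39.4%, Rpl31 with 34.1%, Rpl37a with 32.4% and Rpl29 with 28.8%. How the authors treated reads of repeated sequence is not given in the sources used here.

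The median percentile of the 77 canonical promoters was 92.5, 96.5 and 96.1 in the 3 libraries, a mean of 95.1 ± 2.23 (SD, n = 3). In the same libraries the 11181 other open promoters had medians of 84.6, 92.3 and 91.8. Of the 77, 66, 68 and 66 exceeded that median. At the very top, 12, 13 and 11 of 77 lay above the 90th percentile of the other open promoters, which is 15.6%, 16.9% and 14.3% of the members. In all 52 of the 77 lay above percentile 90 in each library. Large subunit genes had a median of 94.3 and small subunit genes of 95.8, taken over each gene's mean. Small minus large was 2.33, 0.95 and 1.92 percentile units in the 3 libraries, 1.73 ± 0.713, so the small subunit median was higher in each. The share above percentile 90 was 77.4%, 90.3% and 90.3% of small subunit genes. It was 60.9%, 95.7% and 91.3% of large subunit genes, so higher than the small subunit share in replicates 2 and 3. In replicate 1, the library with the fewest peaks, 70 of 77 had a lower percentile than in both other libraries.

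**Figure D1:**
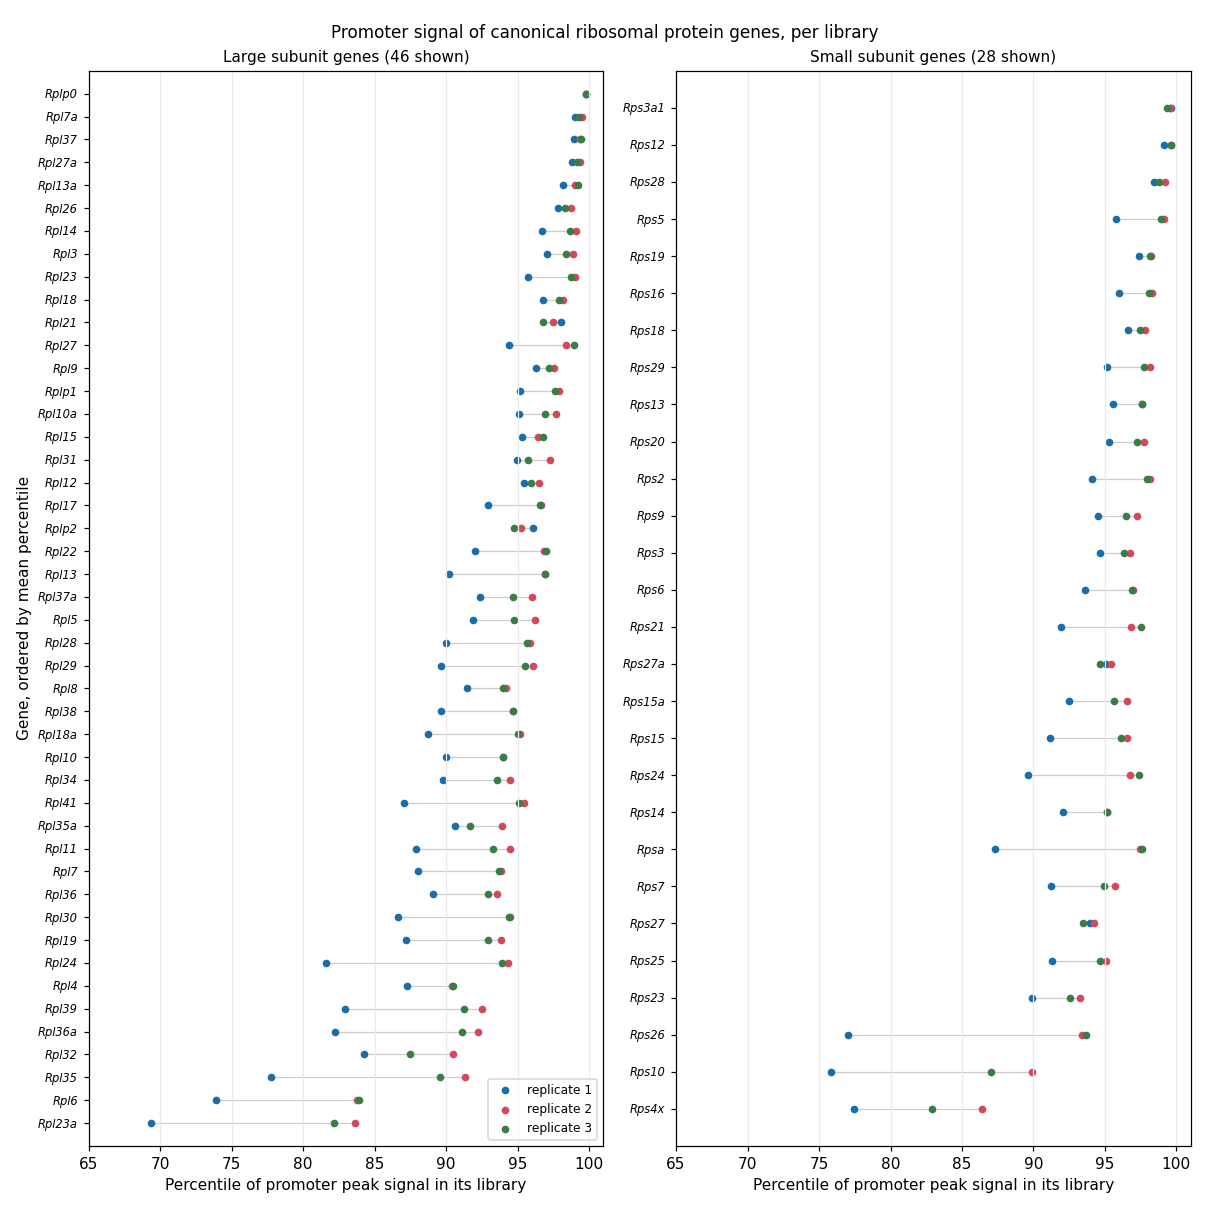
Percentile of the strongest promoter peak within each library (horizontal axis, 100 is the strongest peak) for 46 large subunit and 28 small subunit genes. Each row of the vertical axis is a gene, in separate panels for the subunits, with 1 point per library. Most genes lie above percentile 90 in all 3 libraries, and the low end is held by genes that include Rpl23a, Rpl6, Rps4x and Rps10.

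The highest was Rplp0 (ENSMUSG00000067274.10, chr5:115559467-115563727, plus strand), which encodes the P0 protein of the stalk that recruits elongation factors. Its deposited signal was 13.4, 28.5 and 30.2, at percentiles 99.8, 99.8 and 99.8. Rps3a1 (ENSMUSG00000028081.6, chr3:86137940-86142702, minus strand) followed at 99.6, 99.6 and 99.4. Rps12 (ENSMUSG00000061983.7, chr10:23785183-23787275, minus strand) stood at 99.2, 99.6 and 99.6. Both encode small subunit proteins and carry small nucleolar RNA (snoRNA) genes in their introns. Rpl7a (ENSMUSG00000062647.16, chr2:26910764-26913318, plus strand) stood at 99.0, 99.5 and 99.3. Rpl37 (ENSMUSG00000041841.8, chr15:5116645-5119140, plus strand) stood at 98.9, 99.4 and 99.4. These 5 were high in every library, and their mean percentiles, from 99.2 to 99.8, differed by less than 1 unit.

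The lowest canonical promoter was that of Rpl23a (ENSMUSG00000058546.8, chr11:78180932-78183584, minus strand), whose protein lies at the exit of the ribosomal tunnel. It stood at percentiles 69.4, 83.7 and 82.2, a mean of 78.4 ± 7.87. Rpl6 (ENSMUSG00000029614.13, chr5:121204481-121209241, plus strand) stood at 73.9, 83.8 and 83.9. Rpl23a stood below Rpl6 in each library, though in replicate 2 only at 83.7 against 83.8. The order of these genes was not tested. Rps4x (ENSMUSG00000031320.9, chrX:102184941-102189394, minus strand) stood at 77.5, 86.4 and 82.9. Rps10 (ENSMUSG00000052146.16, chr17:27630418-27636669, minus strand) stood at 75.8, 89.9 and 87.0, in a peak that the annotated readthrough gene RPS10-NUDT3 shares. These 4 were below the members' median in every library.

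Rps4x is 1 of 4 canonical genes on the X chromosome, of which a male has 1 copy. Rpl10 stood at 90.01, 93.96 and 93.98, Rpl36a at 82.2, 92.2 and 91.1, and Rpl39 at 82.9, 92.5 and 91.2. The means of the 4, from 82.3 to 92.7, all lie below the median of the 77 canonical genes. Copy number was not corrected for, and its part in these percentiles was not tested. The 30 canonical genes with an annotated snoRNA inside had a median percentile of 95.9 and the 47 without 94.6.

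The order of the members was shared between libraries. Across the 77 canonical genes, Spearman's rho of the percentile was 0.89 between replicates 1 and 2, 0.86 between 1 and 3 and 0.99 between 2 and 3. These are descriptions across genes, which share each library's depth and base composition. The percentile ran with the CpG ratio of the sequence around the start (rho of 0.45, 0.50 and 0.44) and little with the number of footprints (0.11, 0.06 and 0.12).

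Genes that work with the ribosome but carry other symbols were given beside the members. All 18 of a list of ribosome partners (Fau, which encodes a ribosomal protein fused to a ubiquitin-like domain, Rack1, and elongation, initiation and chaperone factors) were open in all 3 libraries, with a median percentile of 96.7. Their highest was Tpt1 at 99.5 and their lowest Btf3 at 89.1. All 21 genes of ribosome assembly were open, with a median of 93.6, from Ubtf, the RNA polymerase I factor, at 76.9 to Nop56, a core protein of snoRNA particles, at 99.4. All 11 listed regulators of ribosomal protein genes were open, with a median of 93.5. Among them Sp1 stood at 99.4, Larp1, which binds pyrimidine-tract messages, at 77.6 and Myc at 67.4. The 78 mitochondrial ribosomal protein genes had a median of 89.7 and the 38 open proteasome genes of 91.7, beside 89.5 over all other open promoters.

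The canonical promoters held a median of 7, 10 and 10 footprints, 9 ± 1.73 (SD, n = 3), where other open promoters held 5, 8 and 7. Since footprint calls can move with signal, a second comparison used the 2598 other open promoters whose mean percentile lay within the middle 50% of the canonical genes, 92.6 to 97.2, called here promoters of like percentile. Their medians were 7, 9 and 9, so the members' median was higher by 0, 1 and 1 footprints in the 3 libraries, 0.667 ± 0.577.

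Rpl4, a large subunit protein gene, and Rps19, which is mutated in Diamond-Blackfan anaemia, held the most footprints, with 11, 22 and 16 in Rpl4 and 17, 15 and 17 in Rps19. Rpl10 followed with 15, 15 and 17. Rpl4, at a mean percentile of 89.4, lay below the members' lower quartile of signal, and Rpl10, at 92.7, below their median. The fewest lay in Rpl23a, with 4, 4 and 5, and Rps24, with 3, 4 and 6. Rpl6, with 3, 7 and 5, and Rpl28, with 5, 6 and 4, followed with equal sums. Of the 77, 75 had at least 1 footprint whose place was shared by all 3 libraries within 500 bp of the representative start (overlap of at least 50% of the shorter). Rpl6 and Rps14 had 0. Of the members' footprints there, 54.8 ± 8.68% were found in all 3 libraries, beside 57.6 ± 9.91% at like percentile. The members' share was lower in each library. The number of footprints agreed less between libraries than the signal did, with rho of 0.52, 0.52 and 0.78.

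Positions relative to the start depend on which base is taken as the start. The representative start was that of the gene's best-supported protein-coding transcript. A footprint covered it in 27.3%, 32.5% and 29.9% of the 77 canonical genes, 29.9 ± 2.60%. In the promoters of like percentile the share was 33.4 ± 4.28%. The members were lower in all 3 libraries, with differences of -1.21, -3.25 and -6.20 percentage points, -3.55 ± 2.51. In 16 of 77 the start was covered in all 3 libraries, beside 7.64% of all protein-coding genes, open or not, and in 46 it was covered in none. Measured from this start, 49.7 ± 0.968% of the members' footprints lay upstream, against 61.1 ± 1.85% at like percentile, and the member share was lower in all 3 libraries. The middle of the strongest peak lay at -9 ± 11.4 bp from the start in the median member and at -52.7 ± 2.31 bp at like percentile (negative is upstream). Both values changed with the choice of start, as follows.

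The pyrimidine tract gives a second reference point. It was defined as a run of at least 6 pyrimidines that begins with a C preceded by a pyrimidine and starts within 10 bp of any annotated start of the gene, a definition made after the positions had been seen. Of the 77 canonical genes 61 (79.2%) had one, against 24.5% of other open promoters and 23.9% at like percentile. Of the ribosome partners 14 of 18 had one, whereas 18 of 78 mitochondrial ribosomal protein genes and 5 of 38 proteasome genes had one. Counted from that C onward, the members' runs had a median length of 9 bases, and the longest, of 18, was in Rpl7. Since a pyrimidine precedes the C by definition, the unbroken stretch of pyrimidines begins before it and is longer. In 18 of the 61 the tract began within 10 bp of the representative start, and the largest distance between both was 487 bp, in Rpl35. The strict form of the motif, a C followed by 4 pyrimidines exactly at the representative start, was met in 9 of 77 (11.7%). Among other protein-coding genes, open or not, it was met in 484 of 21846 (2.22%). The shares were 16.7% for ribosome partners, 5.13% for mitochondrial ribosomal protein genes and 0% for proteasome genes.

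The tract start placed the members' open DNA more tightly. The interquartile range of the distance from start to peak middle was 116 ± 31.3 bp from the representative start over these 61 genes and 73.7 ± 13.1 bp from the tract. At like percentile, among the 621 promoters with a tract, it went the other way, from 123 ± 15.3 to 193 ± 11.8 bp. From the tract the median member peak lay at -66.3 ± 10.02 bp, beside -87.7 ± 1.53 bp at like percentile. From the same start 66.4 ± 1.34% of the members' footprints lay upstream, beside 68.5 ± 1.69% at like percentile. The lower upstream share that the representative start gave the members (a difference of -11.4 ± 2.60 percentage points) came to -2.15 ± 1.15 percentage points when both were measured from the tract.

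Aligned on the tract, the members' footprints fell into a repeated layout. The share of the 61 genes in which a base lay inside a footprint averaged 50% ± 5.96 over bases -60 to -51, beside 32.8 ± 4.70% at like percentile. It dropped to 18.4 ± 0.715% over the first 10 bases from the tract start, 0 to 9. It stood at 28.5 ± 6.82% over bases 10 to 19 and dropped to 13.6 ± 5.30% over bases 30 to 39. It then rose again to 34.9 ± 10.9% over bases 60 to 69, where promoters of like percentile averaged 17.3 ± 5.11%. A further rise upstream, over bases -140 to -131, reached 40.2 ± 6.83%, beside 27.6 ± 4.92%.

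**Figure D2:**
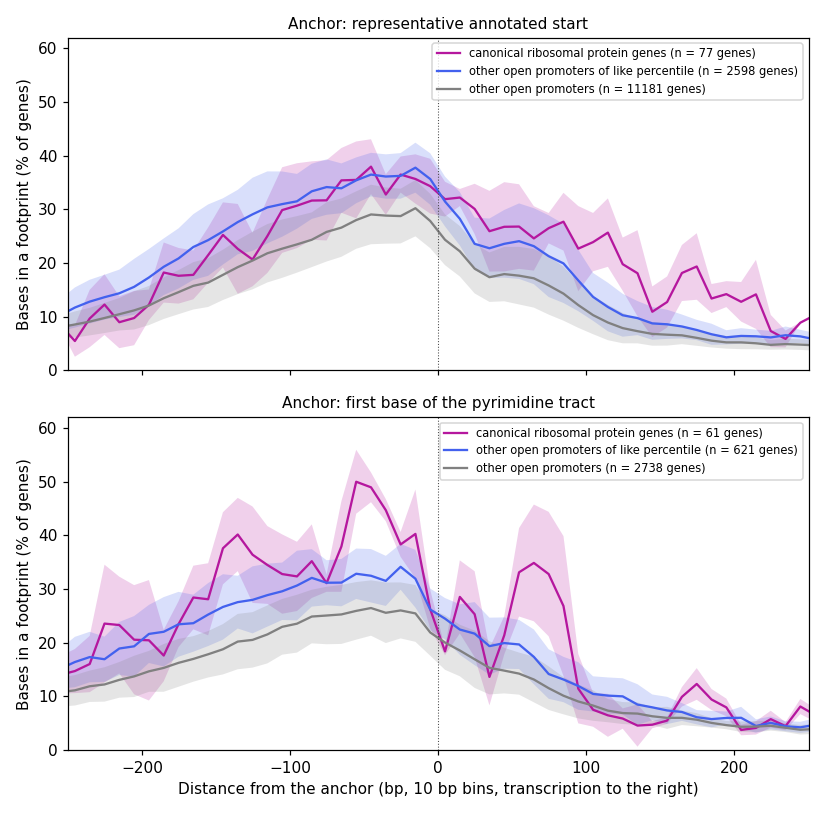
Percent of genes with each base in a footprint (vertical axis, mean over 3 libraries, band ± 1 SD) against distance in bp from the representative start (top) and from the pyrimidine tract start (bottom). From the tract start the 61 canonical genes show separate rises upstream of the tract and downstream of base 50, with dips at bases 0 to 9 (18.4%) and 30 to 39 (13.6%) between.

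Counted per gene in 3 windows chosen after the profile was seen, the rises recurred across libraries. A footprint touched bases -60 to -41 in 39, 44 and 41 of the 61 members, 67.8 ± 4.13%, and in 37 genes it did so in all 3 libraries. At like percentile the share was 58.6 ± 6.70%, lower than the members' in all 3 libraries, with the difference at 9.20 ± 3.31 percentage points. Over the tract itself, bases 0 to 9, 18, 19 and 23 members had a footprint, 32.8 ± 4.34%, beside 35.7 ± 4.28%, with a difference of -2.91 ± 3.58 percentage points. Downstream, over bases 50 to 79, 36, 47 and 44 members had one, 69.4 ± 9.32%, beside 43.5 ± 8.04% at like percentile. This difference was 24.7, 28.1 and 24.8 percentage points in the 3 libraries, the widest of the 3 windows. In the 33 members that themselves lay in the like percentile range, the downstream difference was 26.2 ± 3.74 percentage points, as large as in all 61. The upstream difference, over bases -60 to -41, was 5.07 ± 1.90 percentage points in these 33, smaller than the 9.20 in all 61. With the windows chosen on these libraries, no test was made. All these shares were measured from the tract start, which widened the spread of peak middles at like percentile. The part of that choice of start in the differences was not tested.

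The downstream window was set beside the annotated end of the exon that holds the tract start. In the 50 genes where an exon of the representative transcript holds the tract start, that exon ran on for a median of 39.5 bases, with quartiles of 28.8 and 50. The downstream window was footprinted in all 3 libraries in 29 of the 61 genes, and in 24 of these the exon end was known. In 17 of the 24 the exon ended at or before base 50, so the window lay beyond that exon. Among all 50 genes the exon ended by base 50 in 37, a like share. First introns of these genes are known to carry promoter activity in several members. None of 61 members held an ETS or YY1 motif from 40 to 120 bases after the tract start, and 14 held a GC box there, 22.95%, beside 23.5% at like percentile.

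**Figure D3:**
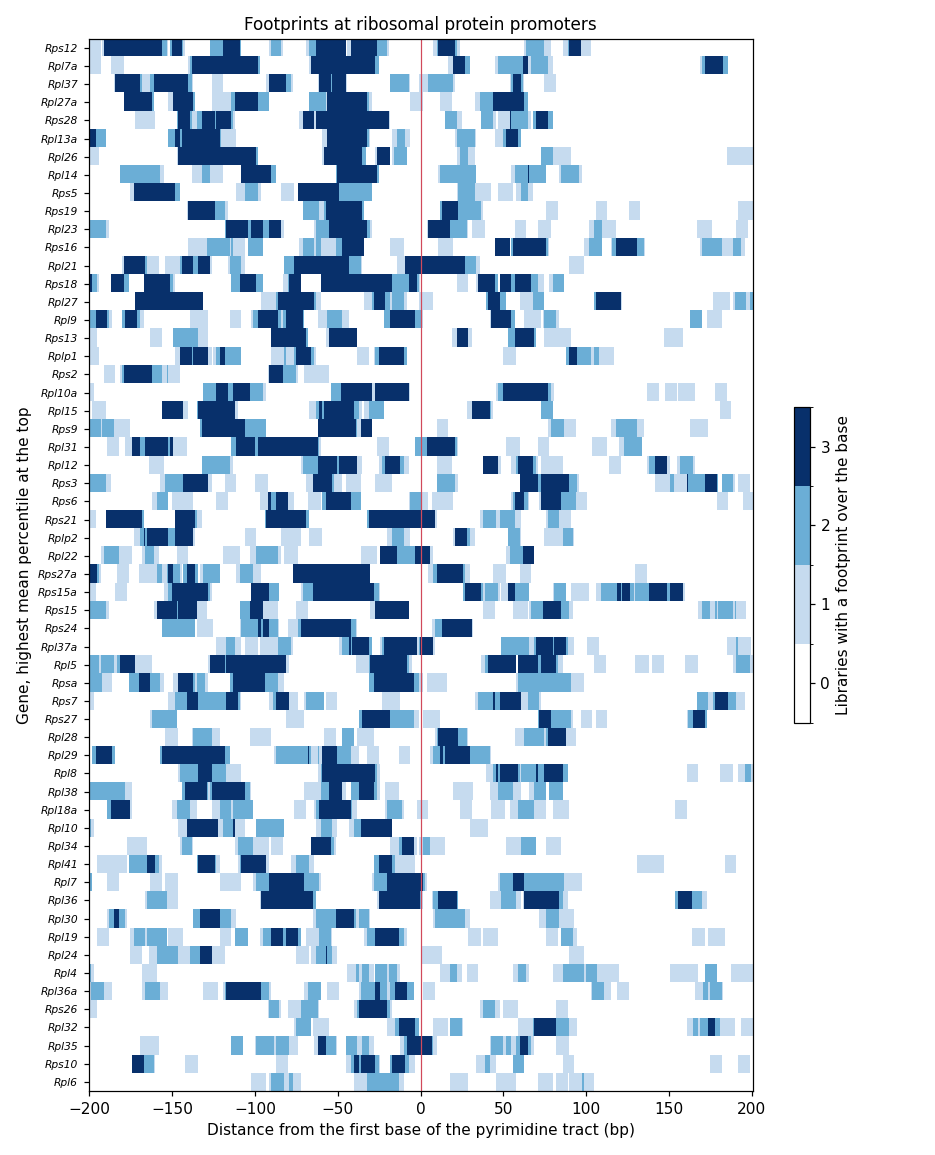
Each row is 1 of 58 canonical genes with a tract, the horizontal axis is the distance in bp from the tract start, and the colour gives the number of libraries, 0 to 3, with a footprint over that base. The upstream footprints line up over many rows, and 13 of all 61 genes with a tract have footprints in all 3 libraries in both outer windows and none over the tract.

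The full layout, both outer windows footprinted in all 3 libraries, was found in 20 of the 61 (32.8%), beside 14.8% of the 621 promoters of like percentile. Both shares were measured from the tract start. Of the 20, 13 had no footprint over the tract in any library, which is 21.3% of the 61, beside 5.96% at like percentile. These were Rpl10a, Rpl12, Rpl13a, Rpl14, Rpl7a, Rpl8, Rps13, Rps15a, Rps16, Rps18, Rps28, Rps3 and Rps7, so genes of both subunits had it. In 11 genes (18.03%) the first 10 bases from the tract start, 0 to 9, met a footprint in all 3 libraries, beside 23.3% at like percentile. Among the 11 were Rpl7, Rpl35 and Rps21. Rpl41, which encodes the shortest ribosomal protein, was the single gene with no footprint in either outer window in any library. The 3 highest-ranked members with a tract within 10 bp of the representative start and a footprint over -60 to -41 in all 3 libraries are shown from 80 bases before the tract start to 19 after it. They are Rpl37 (chr15:5116565-5116664, plus strand), Rps16 (chr7:28350563-28350662, plus strand) and Rps24 (chr14:24490645-24490744, plus strand), in GRCm38, with capitals as above.
Rpl37: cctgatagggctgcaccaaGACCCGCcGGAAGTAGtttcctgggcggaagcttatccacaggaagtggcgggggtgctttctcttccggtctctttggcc
Rps16: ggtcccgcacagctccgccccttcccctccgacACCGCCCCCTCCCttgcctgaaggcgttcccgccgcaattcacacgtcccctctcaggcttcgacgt
Rps24: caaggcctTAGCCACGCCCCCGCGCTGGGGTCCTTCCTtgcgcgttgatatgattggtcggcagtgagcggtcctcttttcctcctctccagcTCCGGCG

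In Rpl37 the stretches from -61 to -55 and from -53 to -46 hold an ETS motif, CCGGAAG, across the single base between them. In Rps16 the stretch from -47 to -35 holds a GC box read on the other strand. In Rps24, 10 pyrimidines follow from base 0 on, and more pyrimidines lie directly before it. There a long stretch from -72 to -43 was covered, and a second one from 13 to the last base shown. In all 3 the pyrimidine run itself is in lower case, so it was not in a footprint in every library.

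The 9 motifs below were searched in the 150 bases before to 50 after the representative start, on both strands, and called footprinted where at least 50% of a match lay in a footprint. The GC box GGGCGG, bound by SP1 and its relatives, was the most frequent, in 44.2% of the 77 canonical promoters, 64.5% at like percentile and 41.9% of all protein-coding genes. It was footprinted in 33.8 ± 1.30% of the members and 51.3 ± 2.76% at like percentile, lower in the members in all 3 libraries. This gap depended on the start. Within 150 bp of the tract it was footprinted in 28, 29 and 27 of 61 members, 45.9%, against 52.7% at like percentile, a difference of -6.76 ± 4.36 percentage points. Among those with a GC box there, 68.4% of members and 61.9% at like percentile had it footprinted in all 3 libraries. The members' promoters were also less rich in G and C, at a median of 57.7% against 64.7%, with a like CpG ratio of 0.873 against 0.870. The part of base composition in these differences was not tested. The CCAAT box, bound by NF-Y, was likewise less frequent, in 20 of 77 members, 36.2% of promoters at like percentile and 30.05% of all genes, and footprinted in 9.09 ± 1.30% of members and 12.6 ± 2.39% at like percentile, a difference of -3.52 ± 2.75 percentage points.

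The ETS motif CCGGAAG was found in 29.9% of members, 21.9% at like percentile and 9.76% of all genes. A footprint lay over it in 14, 19 and 18 members, 22.1 ± 3.44%, beside 14.7 ± 1.68%, with the members higher in all 3 libraries. The 12 genes with it in all 3 libraries were 15.6% of members, beside 11.5% at like percentile. They included Rpl15, Rpl27a, Rpl37, Rplp1, Rps18, Rps3a1, Rps6 and Rps7. Measured from the tract, within 150 bp on either side, the ETS motif was in 23 of 61 members (37.7%, against 23.2% at like percentile) at a median position of -52, with quartiles of -84 and -20. The median lies inside the upstream window of -60 to -41, and the quartiles lie outside it.

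Less common motifs rested on small numbers. The palindrome CTCGCGAG was in 8 of 77 members (10.4%), 2.93% at like percentile and 0.962% of all genes. It was footprinted in 6 members in each library, the same genes, among them Rpl10a, Rpl26, Rps28 and Rps6, and in 2.17 ± 0.313% at like percentile. Around the tract it was in 9 of 61 at a median of -45.5, beside 3.06% at like percentile. The TATA motif TATAAA was in 8 members (10.4%), 3.27% at like percentile and 8.57% of all genes, and footprinted in 8.23 ± 0.750% against 1.24 ± 0.244%. In 5 members (6.49%, beside 0.885% at like percentile) it was footprinted in all 3 libraries, among them Rpl3, Rplp0 and Rps28. Within 150 bp of the tract it was in 3 of 61 members (4.92%), beside 2.90% at like percentile, a narrower ratio. The cyclic AMP element TGACGTCA was in 4 members, Rpl13, Rpl27a, Rps29 and Rps9, which is 5.19%, beside 4.43% at like percentile and 2.22% of all genes. All 4 were footprinted in all 3 libraries, again 5.19% of members, beside 3.96% at like percentile.

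YY1's motif AAGATGG was present without a steady footprint. It was in 8 of 77 members (10.4%), 7.24% at like percentile and 4.60% of all genes. A footprint lay over it in 0, 5 and 3 members, 3.46 ± 3.27%, beside 2.10 ± 0.466% at like percentile. From the tract start it was in 14 of 61 members (22.95%), against 9.02% at like percentile. Of these 14, 1 gene had it footprinted in all 3 libraries (7.14%), beside 21.4% of those with it at like percentile. In the members the motif lay at a median of 24 bases downstream, with quartiles of -1 and 26.8. This places it between the tract and the downstream footprints. The NRF1 motif GCATGCG was in 9.09% of members, 7.85% at like percentile and 3.57% of all genes, and the E-box CACGTG in 6.49%, 8.55% and 5.90%. NRF1 was footprinted in all 3 libraries in 3 members (3.90%, beside 6.54% at like percentile). The E-box was so in 1 member (1.30%, beside 2.69%). A motif in a footprint is a match of letters and does not show which protein was bound.

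**Figure D4:**
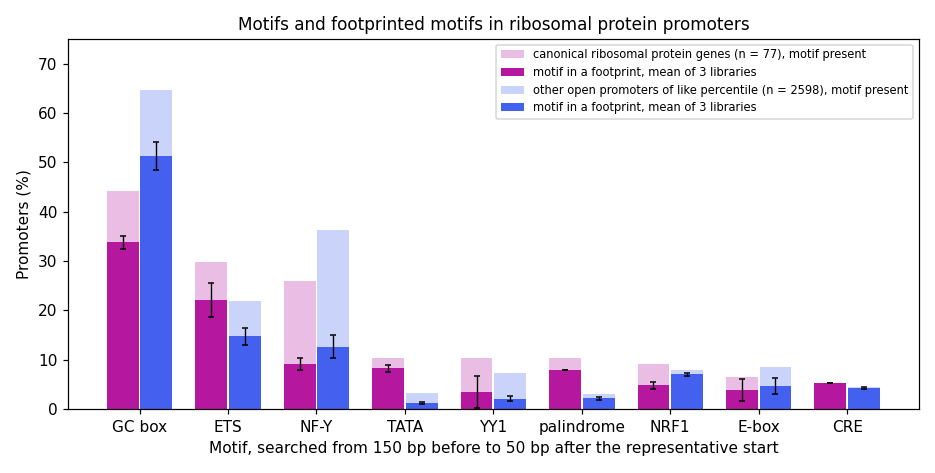
Percent of promoters (vertical axis, from 0) that hold each of the 9 motifs (pale bars) and that hold it in a footprint (full bars, mean over 3 libraries, error bars ± 1 SD) for the canonical genes and other open promoters of like percentile. GC boxes in a footprint are less frequent in the canonical genes (33.8%) than at like percentile (51.3%), and ETS, TATA and palindrome matches are more frequent.

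The DNA around the members' starts was open over about the length seen at other strong promoters. Intervals with a cut-rate false discovery rate of 0.05 or less, joined where they touched, spanned a median of 935, 1177 and 1121 bp over the representative start, 1078 ± 126 bp, beside 1101 ± 104 bp at like percentile. They reached 428 ± 39.4 bp upstream and 612 ± 65.2 bp downstream. The strongest peak covered the representative start in 57, 57 and 55 of the 77 genes. Its middle lay in an exon in 33, 29 and 28 genes, in an intron in 17, 9 and 9, and upstream of the gene in 27, 39 and 40. A single promoter peak was found in 61, 56 and 52 genes. In Rps14 the strongest peak lay at -1748, -1708 and -1738 bp from the representative start, near another annotated start, and no peak lay within 500 bp of the representative one. With a window of 250 bp, Rpl35 lost its peak in replicate 1. Another gene shared the promoter peak with 13 of the canonical genes, so the signal there cannot be assigned to either.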

How the data were processed

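Members, lists and motifs were chosen with earlier results of these data known. Per the labels, the assembly is mm10 and lists were made per library. No aligner, peak caller or footprint caller is given in the sources used here. The authors deposited 2 peak lists per library, with a signal of unstated scale, footprints with a constant score of 0.01, and intervals with a q-value (FDR). The larger list was used. Starts came from GENCODE vM21 on GRCm38; the representative start was chosen by APPRIS, basic tag, support level and length. Some genes are not reported here by name or drawn. Of the rest, genes named in full were the 5 highest and lowest by mean percentile, the 3 with most and fewest footprints and all non-canonical members; others named were chosen after their values were seen. Like-percentile promoters, the tract and its windows were chosen after the data were seen. Overlaps used bedtools 2.31.1, Python 3.11.15, numpy 2.4.6 and pandas 2.3.3. Planted open calls, peak distances, footprint counts, footprints over the start, shared footprints and motif matches were recovered from simulated data. The other steps, such as the tract, its windows and the accessible intervals, were not tested in that way. Alternatives are given with the closing section. Proteins were not compared.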

Additional observations from a re-analysis of the deposited data

How the results depend on the processing

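Of 103 alternatives to 11 results, 88 stayed within a set limit, and 5 results did so under all alternatives. The limit was the SD between replicates or, for counts, 1.5 times the count. For the difference of replicate 2 minus replicate 3, among the 5, it was the interquartile range over genes. That range, 0.138, is wider than the difference itself, 0.0485, so its staying within it says little. The 88 include every alternative that left out a replicate. For results that are means over the 3 libraries, leaving 1 out could not move the value beyond their SD, so those alternatives carry no weight. Positions depended on the start chosen. The median peak distance of -9 bp became -50.0 from RefSeq starts, -66.3 from the tract and 0.333 from the most upstream start, the single change of sign. The upstream share of 49.7% became 58.9% from RefSeq starts, 66.4% from the tract, 46.8% from the most upstream start, 56.5% for footprints inside a called peak and 50.8% for the 64 genes whose peak no other gene shares. The share with a covered start became 39.8% from RefSeq starts, 18.6% from the tract and 27.3% inside peaks. Footprints per promoter fell to 5.33 inside peaks, and the accessible length to 918 bp at an FDR of 0.001. Any of the 9 motifs was footprinted in 60.6 ± 4.56% of members, in 81.8% with 500 bp on each side and in 53.7% with the whole motif required. RefSeq starts, the tract, unshared peaks, rare words, all members and transcripts of any type were alternatives chosen after seeing the data. No paired analysis was possible because there is only 1 group. Unknown depth limits all counts of footprints.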
